A study of Mus musculus with 9 samples.

Results

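The exon junction complex is the protein assembly that splicing leaves on an mRNA close to each joined exon boundary. This report follows the mRNAs of 9 mouse genes that encode it, among RNAs that an antibody to the phosphorylated form of UPF1 (p-UPF1) recovered from activated B cells. The 9 genes were chosen by name, for their roles in the complex. They comprise the core subunits Eif4a3, Magoh, Magohb, Rbm8a and Casc3, the ASAP complex genes Rnps1, Acin1 and Sap18, and the disassembly factor Pym1. All 9 were found among the 27179 gene identifiers of the count table, and all 9 were among the 13129 genes with enough counts to be tested.

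The samples were splenic B cells of wild-type mice, purified as CD43- cells and cultured for 72 h. Per the labels, all 3 groups received CD40L at 5 ug/mL, anti-IgM at 10 ug/mL and IL-4 at 20 ng/mL, while the methods of the study name an anti-CD40 antibody in place of the ligand. RNA immunoprecipitation sequencing (RIP-seq) gave 3 libraries of RNA precipitated with the p-UPF1 antibody, 3 of RNA precipitated with normal rabbit IgG, and 3 of the lysate itself (input). No treatment, genotype or time differed between the groups, and cells without UPF1 were not among these samples. For its mice as a whole, the methods of the study give age-matched adults of both sexes, a range in weeks that is not tied to single libraries, and no number of animals behind these. The study calls the data points of its graphs independent biological replicates, without naming these libraries. If replicates share animals or cultures, p-values measure technical spread alone.

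The helicase encoded by Eif4a3 clamps onto RNA when it holds ATP, and the dimer of MAGOH (or its paralog MAGOHB) and RBM8A locks it there. CASC3 joins the assembled complex, mostly in the cytoplasm, whereas RNPS1, ACIN1 and SAP18 form ASAP, a peripheral complex that regulates splicing. PYM1 binds the MAGOH and RBM8A dimer and ribosomes and takes the complex apart during translation. A complex that remains downstream of a stop codon, outside the reach of the terminating ribosome, recruits UPF3B and UPF2 and leads to phosphorylation of UPF1, the trigger of nonsense-mediated mRNA decay (NMD). The data below concern the mRNAs of these genes, and hold no measurement of the proteins.

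Total counts ran from 17372510 in an IgG library to 24945286 in an input library. Replicates of every group differed by more than sampling noise (chi-square per degree of freedom 1.38 to 1.73 for input pairs, 4.64 to 9.94 for IgG pairs and 2.83 to 4.04 for p-UPF1 pairs), so no library was a second copy of another, and each was counted as a sample. Whether they came from separate lysates cannot be read from this. B cell markers were abundant in all 9 libraries (Cd79b at 523 to 1215 CPM, the count scaled to a common library total), and the 14 markers of T cells, myeloid cells, erythroid cells and NK cells other than Adgre1 each stayed at or below 0.473 CPM. Adgre1 lay between 53.7 and 137 CPM, with the lowest values in p-UPF1. The summed level of 5 B cell markers was itself lower in p-UPF1 (1429 to 1493 CPM) than in IgG (1758 to 1849 CPM) and input (2389 to 2408 CPM). Its part in the results was not tested. Not every marker followed the sum. Cd22 was highest in a p-UPF1 library (295 CPM) and lowest in an IgG library (152 CPM). Pax5 was lowest in an input library (55.7 CPM). For 3 plasma cell markers the summed level was 21.5 to 24.9 CPM in input, 25.8 to 29.9 CPM with IgG and 17.98 to 19.1 CPM with p-UPF1. Its part was not tested either. Sdc1 went against this sum, with its highest level in a p-UPF1 library (9.11 CPM) and its lowest in an IgG library (2.16 CPM). Mitochondrially encoded mRNA made up 2.47% to 2.53% of input counts, 2.05% to 2.24% of IgG counts and 0.0706% to 0.0778% of p-UPF1 counts, and its part in the values below was not tested beyond the scaling given in the closing section.

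Input libraries gave the level of each mRNA in the cells. From here on, CPM values are TMM-normalised. For such levels, fewer cells holding an mRNA and less of it per cell cannot be told apart in bulk lysate. Per kilobase of annotated exon, Eif4a3 stood at 116 ± 1.94 CPM and Magoh at 108 ± 4.0 CPM (SD, n = 3), above all other members. Rnps1 (48.9 ± 1.17), Acin1 (48.6 ± 0.485) and Rbm8a (45.8 ± 2.08) followed, and the libraries of Rnps1 and Acin1 overlapped. Pym1 stood at 30.7 ± 1.0 and Casc3 at 28.7 ± 0.998. Magohb (16.0 ± 0.921) and Sap18 (14.97 ± 0.433) were lowest. With the longest RefSeq transcript as the length, Acin1 stood at 58.4 and Pym1 at 37.7 CPM per kilobase, which put Acin1 above Rnps1 and left the rest of the order as it was. Of the paralogs that supply the same subunit, the mRNA of Magoh was thus the more abundant.

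Magoh and Magohb encode nearly the same protein from separate chromosomes, so their reads are told apart by the bases at which the transcripts differ. Their coding sequences have 441 and 447 bases. Over 441 aligned bases, 81.0% were identical, and the longest stretch without a difference had 17 bases. The last 150 coding bases of both are printed because they show how densely the differences lie. They were read from the RefSeq transcripts on GRCm38 (the assembly that mm10 names), Magoh from the plus strand of chromosome 4 (gene at chr4:107879755-107887424) and Magohb from the minus strand of chromosome 6 (gene at chr6:131284389-131293244). Capitals mark the 29 positions at which the genes differ.
Magoh: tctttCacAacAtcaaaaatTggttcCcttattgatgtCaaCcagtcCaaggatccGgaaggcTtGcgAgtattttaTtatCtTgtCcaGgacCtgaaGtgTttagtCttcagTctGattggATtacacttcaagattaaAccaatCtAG
Magohb: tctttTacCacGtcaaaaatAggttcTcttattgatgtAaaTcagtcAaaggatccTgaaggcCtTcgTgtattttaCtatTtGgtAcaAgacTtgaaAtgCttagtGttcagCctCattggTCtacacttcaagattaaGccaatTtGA

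Magohb was also the only member with transcripts that GENCODE M21 classes as nonsense-mediated decay, 3 of its 7 transcripts. Of 11870 tested coding genes, 29.4% had at least 1 such transcript. In Magohb-203, an additional exon of 200 bases (chr6:131291741-131291940) places a stop codon in frame after 48 codons, 400 bases before the last exon junction. In Magohb-202, skipping of a 59-base exon (chr6:131289389-131289447) shifts the frame, and a stop follows after 46 codons, 147 bases before the last junction. The sequence from the start of the second exon of each transcript to this early stop is printed because it ends at that stop. It lies on the minus strand at chr6:131291888-131291940 for Magohb-203 and chr6:131288100-131288146 for Magohb-202. For Magohb-203 it belongs to the additional exon. For Magohb-202 it lies past the skipped exon and is read in the shifted frame. Capitals mark the stop codon. Counts were given per gene, so reads of these transcripts could not be told apart from those of the coding transcripts.
Magohb-203: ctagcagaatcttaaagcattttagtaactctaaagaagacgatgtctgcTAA
Magohb-202: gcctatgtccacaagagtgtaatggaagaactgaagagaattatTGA

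To ask whether the mRNAs of the complex came down with p-UPF1, precipitates were compared with IgG and with input in the same fit. Of the 5 core mRNAs, Eif4a3, Magoh, Magohb and Rbm8a were recovered less with p-UPF1 than with IgG or in input, by 3.47-fold to 11.4-fold. The other core mRNA, Casc3, and Pym1 were recovered more, by 1.89-fold to 1.97-fold. Of all tested genes, 42.2% were called lower and 40.4% higher over IgG, and 42.6% lower and 40.8% higher over input. Rnps1 and Acin1 lay close to the typical RNA, and Sap18 was lower by 2.38-fold and 2.64-fold. The methods of the study count an RNA as bound to p-UPF1 when its log2 fold change reaches 1 against IgG and 2 against input, both at an adjusted P under 0.05. No member did so, beside 6.25% of all tested genes. Both comparisons share the p-UPF1 libraries, so they are no independent evidence of each other.

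**Figure D1:**
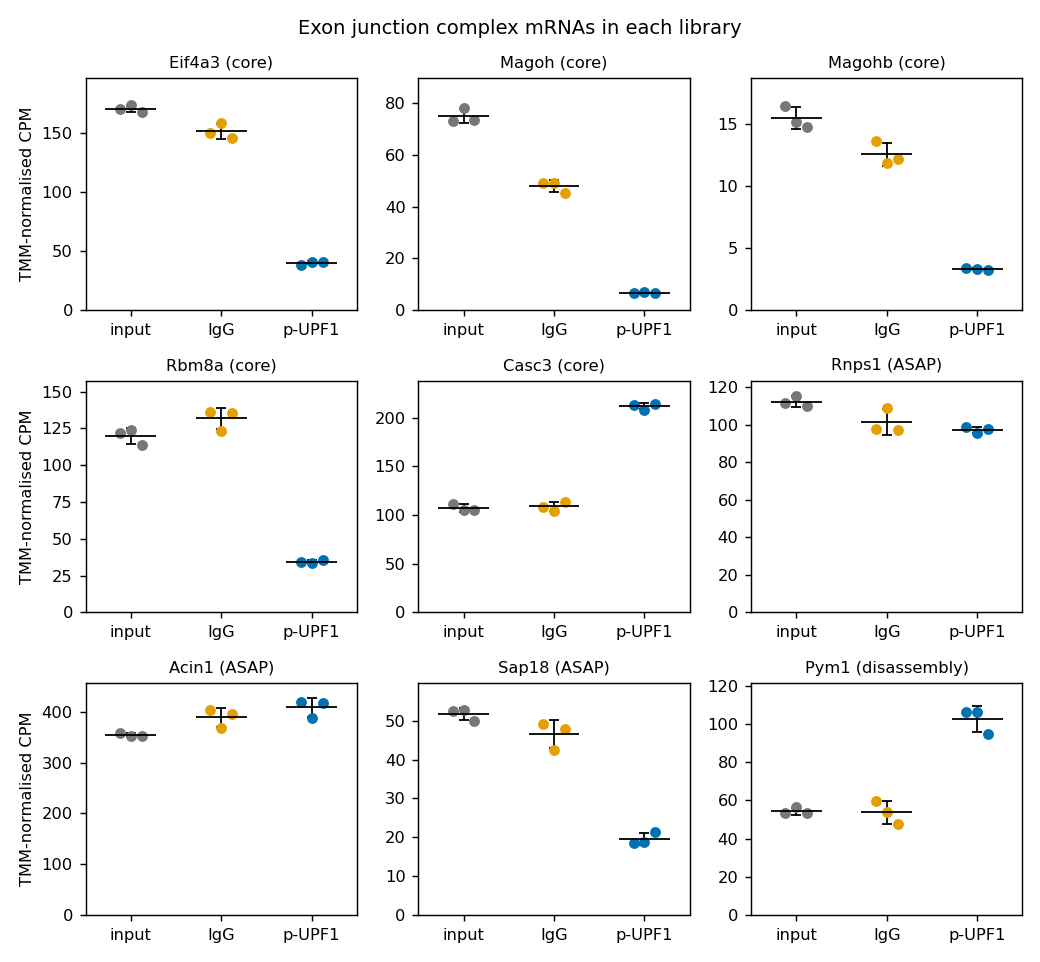
TMM-normalised CPM of the 9 members, a panel each, with a point per library, the group mean as a line and the SD as bars (n = 3). Eif4a3, Magoh, Magohb, Rbm8a and Sap18 lie lower in every p-UPF1 library than in the other 6, and Casc3 and Pym1 lie higher.

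By edgeR's quasi-likelihood test (Benjamini-Hochberg adjusted P under 0.05), 2 of 9 members were higher and 5 were lower in p-UPF1 than in IgG, against 40.4% and 42.2% of all tested genes. Compared with input, 3 were higher and 6 lower, against 40.8% and 42.6%. With most genes past the threshold in either direction, these counts are near the background. The 5 lower members were lower by at least 1 on the log2 scale than both IgG and input, a set that held 19.1% of all tested genes. The median log2 fold change of the 9 members was -1.25 over IgG and -1.40 over input, beside -0.03 in each over all tested genes.

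Magoh showed the lowest recovery of the members. Its level was 73.4, 78.2 and 73.5 CPM in the input libraries, 49.4, 49.3 and 45.3 CPM in IgG, and 6.40, 6.86 and 6.48 CPM in p-UPF1. No library of any group overlapped another group, and p-UPF1 still held 143 to 152 reads per library. The log2 fold change was -2.87 ± 0.07 (SE) over IgG (adjusted P = 1.09e-15, edgeR's quasi-likelihood test) and -3.51 ± 0.07 over input, lower values than in all but 1.71% and 1.35% of tested genes. Its paralog Magohb had 16.5, 15.1 and 14.8 CPM in input, 13.6, 11.9 and 12.2 CPM in IgG, and 3.37, 3.34 and 3.26 CPM in p-UPF1. The p-UPF1 libraries lay below all others, and the log2 fold change was -1.91 ± 0.11 over IgG and -2.22 ± 0.11 over input (adjusted P = 8.67e-11 and 7.29e-12, edgeR). All its transcripts were counted together here. The 3488 tested genes with at least 1 transcript of the NMD class had log2 fold changes over IgG with a median of 0.17, and those without one of -0.06, so Magohb lay below the median of its class.

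Rbm8a encodes the partner that binds MAGOH through its RNA-recognition fold. It stood at 122, 124 and 114 CPM in input, 137, 123 and 136 CPM in IgG, and 34.2, 33.5 and 35.7 CPM in p-UPF1. The p-UPF1 libraries were the lowest, and input and IgG overlapped. The log2 fold change was -1.93 ± 0.06 over IgG and -1.80 ± 0.06 over input (adjusted P = 6.46e-15 and 1.33e-14, edgeR). For Eif4a3, the helicase, input held 170.1, 173 and 168 CPM, IgG 150.01, 159 and 146 CPM, and p-UPF1 38.4, 40.7 and 40.6 CPM. The 3 groups did not overlap, and the log2 fold change was -1.93 ± 0.05 over IgG and -2.10 ± 0.05 over input (adjusted P = 1.01e-15 and 2.70e-16, edgeR). Over IgG, the values of Eif4a3, Magohb and Rbm8a differed by less than their SE.

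Casc3, the core subunit that joins last, went the other way. Its level was 112, 105 and 105 CPM in input, 109, 104 and 114 CPM in IgG, and 213, 208 and 214 CPM in p-UPF1. Input and IgG overlapped, and every p-UPF1 library lay above them. The log2 fold change was 0.96 ± 0.04 over IgG and 0.98 ± 0.04 over input (adjusted P = 2.96e-12 and 1.82e-12, edgeR). The value over IgG stood just under the minimum of 1 and above 76.5% of tested genes, while the value over input was far from the minimum of 2.

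**Figure D2:**
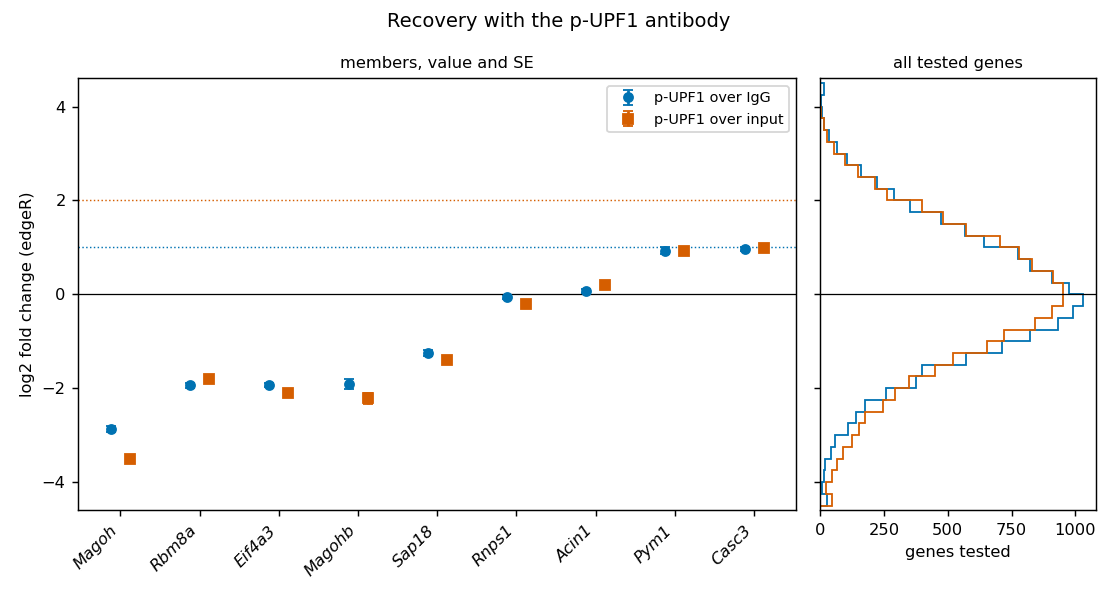
Left, log2 fold changes of the 9 members with their SE, p-UPF1 over IgG (circles) and over input (squares), ordered by the value over IgG, with dotted lines at the study's minimums of 1 and 2. Right, all 13129 tested genes on the same axis, with values beyond the outermost bins placed in them. No member reaches both minimums.

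Pym1, the disassembly factor, was the other member that rose over both IgG and input. It was measured at 53.3, 56.4 and 53.3 CPM in input, 59.6, 53.9 and 47.7 CPM in IgG, and 106, 107 and 94.6 CPM in p-UPF1. Its p-UPF1 libraries lay above all others, although replicates spread more than those of Casc3. The log2 fold change was 0.93 ± 0.07 over IgG and 0.92 ± 0.07 over input (adjusted P = 2.15e-09 and 2.22e-09, edgeR). For Casc3 and Pym1, all 3 p-UPF1 libraries exceeded the other 6, as they did for 37.0% of all tested genes. The 5 lower members lay below in the same sense, as 37.6% did.

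In the ASAP group the 3 mRNAs did not move together. Sap18, the subunit that also belongs to a histone deacetylase complex, held 52.4, 52.8 and 50.03 CPM in input, 49.2, 42.5 and 47.9 CPM in IgG, and 18.5, 18.8 and 21.4 CPM in p-UPF1. The p-UPF1 libraries lay apart from the rest, and the log2 fold change was -1.25 ± 0.07 over IgG and -1.40 ± 0.07 over input (adjusted P = 7.20e-11 and 1.10e-11, edgeR). Rnps1, which couples the complex to splicing and decay, lay between 110.1 and 115 CPM in input, 96.9 and 109 CPM in IgG, and 95.5 and 98.5 CPM in p-UPF1. Its log2 fold change over IgG was -0.06 ± 0.05 (adjusted P = 0.297, edgeR), and that over input -0.21 ± 0.05 (adjusted P = 0.00105). Acin1, the scaffold of ASAP, lay between 352 and 359 CPM in input, 368 and 404 CPM in IgG, and 388 and 420.5 CPM in p-UPF1. Its libraries overlapped between p-UPF1 and IgG, with a log2 fold change of 0.07 ± 0.04 (adjusted P = 0.148, edgeR), and were higher than input by 0.21 ± 0.04 (adjusted P = 4.05e-04). The call over IgG turned on the low-count filter, with 0.11 (adjusted P = 0.0246) without it, and on single libraries, with 0.10 (adjusted P = 0.0401) without IgG replicate A and 0.11 (adjusted P = 0.0389) without p-UPF1 replicate B. For Rnps1, the calls turned on the processing. Library size alone gave -0.22 over IgG (adjusted P = 4.42e-04), and the call over input was lost with an IgG library as the TMM reference (-0.10, adjusted P = 0.0714) and without a low-count filter (-0.07, adjusted P = 0.258).

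A log2 fold change of 0 here stands for the typical RNA of a library, not for an equal amount of RNA, since the amount precipitated was not part of the counts. With mitochondrially encoded mRNA set equal in all libraries instead, the median of all genes moved to 4.66 over IgG, and all 9 members became higher in p-UPF1, as did 99.4% of all tested genes. Relative to that median, Magoh stood at -2.83 and Casc3 at 0.997, as against -2.83 and 0.993 with TMM. Such a scale shifts all genes of a comparison nearly alike, so it cannot change the order of the members.

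The comparison of IgG with input shows which mRNAs took a larger or smaller share of the RNA held by beads and a nonspecific antibody than of the lysate. Of the members, 2 were higher (Rbm8a and Acin1) and 4 lower (Eif4a3, Magoh, Magohb and Rnps1) in IgG, against 18.2% and 34.7% of all tested genes. Magoh was already lower here, by a log2 fold change of -0.64 ± 0.05 (adjusted P = 9.27e-08, edgeR's quasi-likelihood test), and this was the largest difference among the members. The other calls were small, with -0.30 ± 0.09 for Magohb (adjusted P = 0.0126), -0.17 ± 0.04 for Eif4a3 (adjusted P = 0.00359), -0.15 ± 0.05 for Rnps1 (adjusted P = 0.0183), 0.14 ± 0.05 for Rbm8a (adjusted P = 0.0311) and 0.14 ± 0.04 for Acin1 (adjusted P = 0.0167). Magoh kept its call under all other scalings tried, whereas the calls of Eif4a3, Magohb and Rnps1 were lost when an input library served as the TMM reference. The calls of Rbm8a and Acin1 turned on single libraries, with 0.09 (adjusted P = 0.214, edgeR) for Rbm8a and 0.12 (adjusted P = 0.081) for Acin1 without Input replicate C, and the closing section names the others. Sap18 (-0.15), Casc3 (0.02) and Pym1 (-0.02) did not pass the test, although Casc3 was called higher with library size alone (0.14, adjusted P = 0.019), with an input library (0.13, adjusted P = 0.0285) or an IgG library (0.13, adjusted P = 0.0255) as the TMM reference, and in a fit of these groups alone (0.13, adjusted P = 0.0463). With each of these 4 settings, 3 members were higher and 1 lower in IgG. Of all tested genes, up to 26.8% were then higher and 23.9% to 24.8% lower.

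Ratios of counts within a library do not depend on how libraries are scaled. The ratio of Magoh to Magohb was 4.46, 5.17 and 4.97 in input libraries, 3.63, 4.15 and 3.73 in IgG libraries, and 1.90, 2.05 and 1.99 in p-UPF1. The groups did not overlap, and the mean log2 ratio was lower in p-UPF1 by -0.95 against IgG and -1.29 against input. Thus the paralog pair was closer to parity in the precipitate than in the cells. The ratio of Rbm8a to the sum of Magoh and Magohb, its dimer partners, stood at 1.32 ± 0.0365 for input, 2.18 ± 0.175 for IgG and 3.48 ± 0.189 for p-UPF1 libraries (SD, n = 3). These values did not overlap between groups either, with a log2 difference of 0.68 between p-UPF1 and IgG and 1.40 between p-UPF1 and input. The sum follows Magoh, the more abundant paralog.

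Eif4a3 was set against Eif4a1, the closely related helicase of translation initiation. Its ratio was 0.289 ± 0.00620 for input libraries, 0.329 ± 0.0121 for IgG libraries and 0.295 ± 0.00572 for p-UPF1 libraries (SD, n = 3). The p-UPF1 and input libraries overlapped (log2 difference 0.03, p = 0.5 in an exact permutation test, where the smallest p possible is 0.1). The p-UPF1 libraries lay below all IgG libraries, by a log2 difference of -0.16. Acin1 was set against Pnn, which replaces it in the related PSAP complex with RNPS1 and SAP18. This ratio was 5.86 ± 0.389 in p-UPF1, beside 1.62 ± 0.0878 with IgG and 1.98 ± 0.0138 before precipitation, and every p-UPF1 library lay above all others. In the exact two-sided permutation test over 3 against 3 libraries, 11 of the 12 comparisons of a ratio reached p = 0.1, the smallest value the design allows (adjusted P = 0.109).

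**Figure D3:**
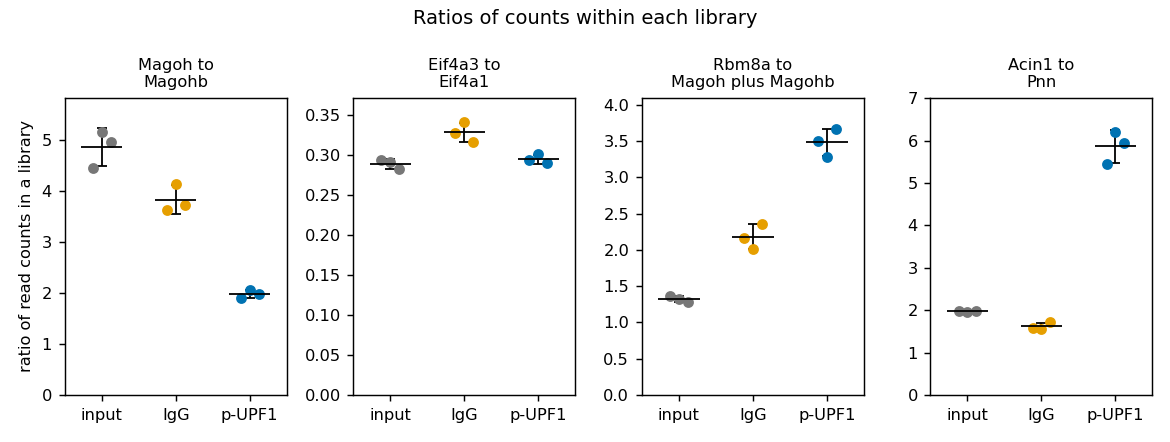
Ratios of read counts within each library for 4 combinations of genes, with a point per library, the mean as a line and the SD as bars (n = 3), on linear axes that start at 0. Magoh to Magohb has a mean of 4.86 in input and 1.98 in p-UPF1, Acin1 to Pnn has 1.98 and 5.86, and Eif4a3 to Eif4a1 overlaps between these groups.

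A known feature of NMD targets is an exon junction well downstream of the stop codon. Casc3 was the only member with a junction after the stop in its chosen RefSeq transcript, 42 bases downstream, and no member had any at over 50 bases. Such a junction at over 50 bases was annotated in 32 of 11905 tested coding genes (0.269%), whose median log2 fold change over IgG was 0.98. The median of the rest was 0.01.

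Long 3′ UTRs are another feature linked to UPF1. Magoh (148 bases), Eif4a3 (180 bases) and Magohb (240 bases) had the shortest 3′ UTRs of the members, all below the median of 1016 bases over tested coding genes. Casc3 had 1589 bases, and Pym1 (478), Acin1 (567) and Rnps1 (713) lay between them. Rbm8a and Sap18, both recovered less, had the longest, with 2057 and 2902 bases. Across 11905 coding genes, Spearman's rho between 3′ UTR length and log2 fold change was 0.359 over IgG and 0.375 over input, that of mRNA length was 0.297 and 0.357, and that of the number of exons was 0.0809 and 0.139. These are descriptions across genes of the same libraries, which are not independent replicates. Of the 5 lower members, 3 thus had 3′ UTRs below the median and 2 above it.

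**Figure D4:**
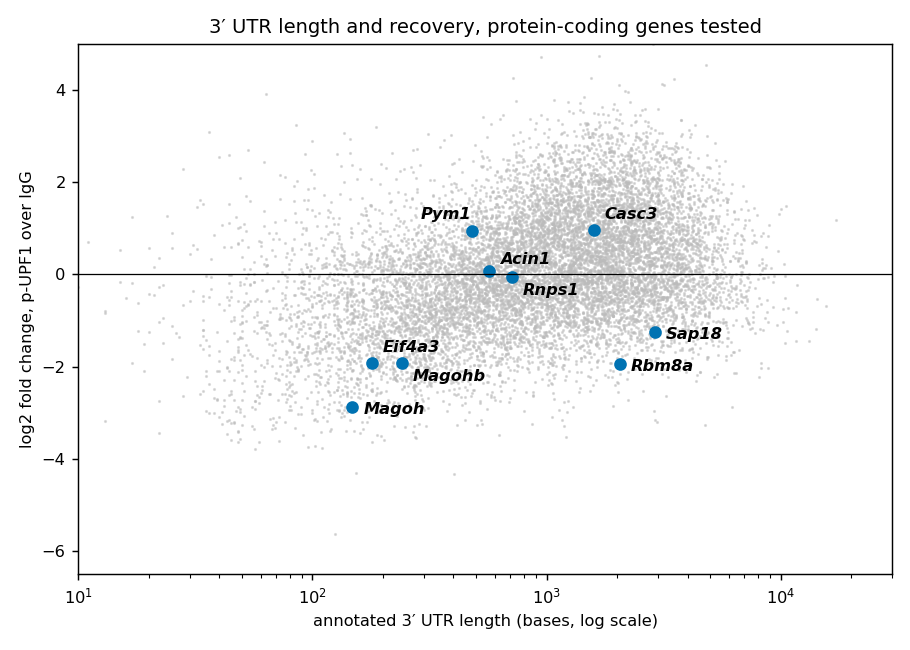
Annotated 3′ UTR length in bases (log axis) against the log2 fold change of p-UPF1 over IgG for tested protein-coding genes (grey) and the 9 members (blue). Rbm8a and Sap18 have the longest 3′ UTRs of the members and lie below 0.

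Members differed in length as well. Magoh and Magohb had the shortest mRNAs, with 692 and 766 bases, and Eif4a3 had 1463 bases, beside a median of 2974 over tested coding genes. Pym1, which rose, was short too, with 1165 bases in 3 exons. Casc3 had 3742 bases in 14 exons, and Acin1 4735 bases in 19 exons. Sap18 (3458 bases in 4 exons) and Rbm8a (2616 bases in 6 exons) carried most of their length in the 3′ UTR.

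The positions of the other genes on GRCm38 are chr11:119288363-119300043 for Eif4a3, chr3:96629928-96633791 for Rbm8a, chr11:98809808-98833807 for Casc3, chr17:24414646-24425898 for Rnps1, chr14:54642161-54686965 for Acin1, chr14:57798189-57804980 for Sap18 and chr10:128747879-128766568 for Pym1. Several members have near-identical copies elsewhere, with which their reads could be shared. Sap18 was identical over 780 bases to the single-exon gene Sap18b, which had 253 to 323 counts in input, between 180 and 247 in IgG and between 34 and 55 in p-UPF1, lower by a log2 fold change of -2.55 over IgG. Rnps1 was 99.5% identical over 1560 bases to a stretch at Rnps1-ps, and Rbm8a 97.8% identical over 723 bases to Rbm8a2. Eif4a3 was 96.0% identical to Gm5576, which held 34 to 219 counts per library, and similar to Eif4a3l1, which held at most 1. The values of Sap18, Rnps1, Rbm8a and Eif4a3 are uncertain to the extent that reads were split or dropped at these copies. Magoh, Magohb, Casc3, Acin1 and Pym1 had no match of at least 90% over 300 bases. Exons of Casc3 overlapped 282 bases of Gm12359 on the opposite strand (10 to 27 counts), and those of Acin1 overlapped 814 bases of 1700123O20Rik (283 to 861 counts) and 4930579G18Rik (181 to 266 counts in input and IgG, 449 to 518 in p-UPF1). If strand was not used in counting, reads in these overlaps cannot be assigned.

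In the wider list of 28 genes that work with the complex, 12 were higher and 16 lower in p-UPF1 than in IgG (adjusted P under 0.05, edgeR), beside 40.4% and 42.2% of all tested genes. Over input, 10 were higher and 16 lower, beside 40.8% and 42.6%. Their median log2 fold change was -0.60 over IgG and -0.51 over input. Of the 28, Upf2 and Smg6 met the combined criterion, a count near the background of 6.25% of all tested genes.

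These 2 belong to the bridge from the complex to decay. Upf2, which links UPF3 proteins to UPF1, stood at 2.05 ± 0.04 over IgG and 2.37 ± 0.04 over input on the log2 scale (adjusted P = 3.27e-17 and 6.07e-18, edgeR). Smg6, the endonuclease of NMD that also contacts the complex, had 2.40 ± 0.07 and 2.35 ± 0.07 (adjusted P = 4.14e-15 and 3.78e-15, edgeR). Upf3b, which binds the core directly, was higher by 0.41 ± 0.05 and 0.74 ± 0.05, whereas its paralog Upf3a was lower, with -1.39 ± 0.07 and -1.46 ± 0.07.

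Of 5 partner and assembly genes, 2 were higher and 3 lower over IgG, beside 40.4% and 42.2% of all tested genes. Pnn, the partner of RNPS1, stood at -1.78 ± 0.06, the spliceosomal proteins Cwc22, which delivers Eif4a3 to the spliceosome, at -0.60 ± 0.05 and Cwc27 at -1.11 ± 0.05. Ipo13, the importin that returns MAGOH and RBM8A to the nucleus, stood at 0.76 ± 0.06. Of 17 export genes, 6 were higher and 11 lower, beside the same background of 40.4% and 42.2%. The export adaptor Alyref was lower (-1.18 ± 0.04), as was the export receptor subunit Nxt1 (-2.14 ± 0.10), and Chtop, another adaptor, was higher (1.39 ± 0.04). The helicase paralogs differed in direction, with -1.77 ± 0.04 for Eif4a1 and 0.44 ± 0.05 for Eif4a2.

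**Figure D5:**
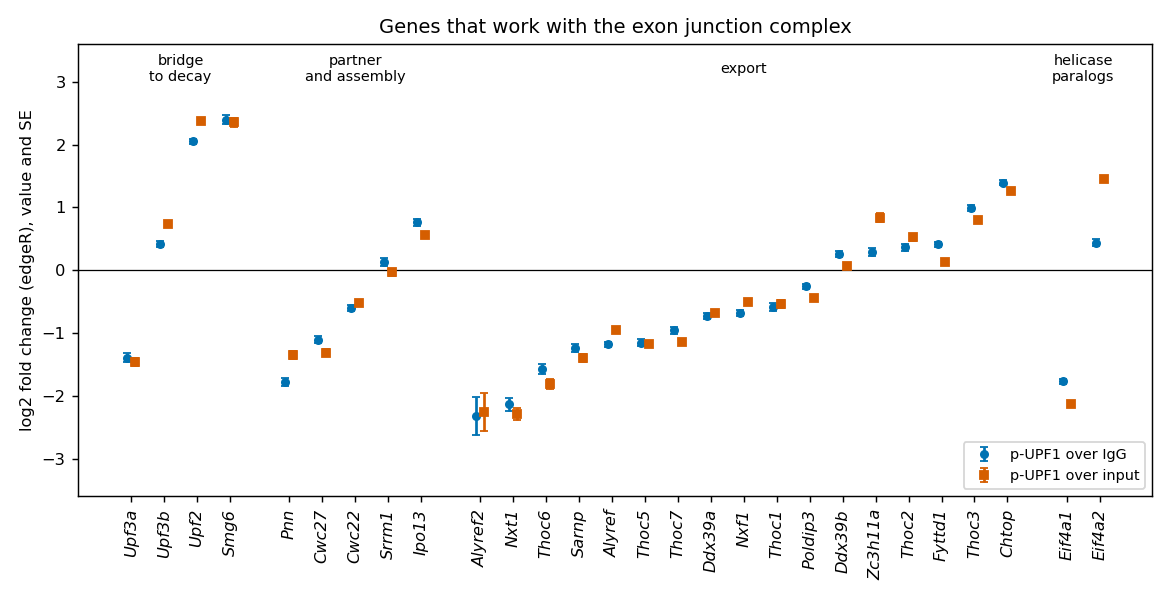
Log2 fold changes with SE of the 28 genes of the wider list, p-UPF1 over IgG (circles) and over input (squares), grouped by role and ordered by the value over IgG within a group. Upf2 and Smg6 lie above 2 in both comparisons, and Alyref2 and Nxt1 lie below -2.

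Across the 9 libraries, the genes whose log2 CPM relative to input lay nearest to that of Magoh among 8991 genes were Atp5o (Euclidean distance 0.0959), Fth1 (0.173) and Cox6a1 (0.214). Their log2 fold changes over IgG were -2.88, -2.80 and -2.98, beside -2.87 for Magoh. Among those nearest to Casc3 were Camk2a (0.120) and Emc8 (0.129), with log2 fold changes over IgG of 0.88 and 1.02. These genes were picked for nearness over the same 9 libraries, so their like fold changes follow from the choice. This likeness is a description only.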

How the data were processed

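RIP-seq was performed on 3 input, 3 IgG and 3 p-UPF1 libraries of activated splenic B cells, made with a directional kit. The authors deposited unscaled read counts for genes numbered by NCBI Gene. The submitters' processing notes name cutadapt, HISAT2, featureCounts and mm10, with no versions. For its RNA-seq the study's methods name single-end, unstranded HISAT2 alignment, and use of strand is not stated separately for these RIP-seq libraries. Reads carry no molecular identifiers, so duplicates count separately. Columns carry letters whereas labels carry replicate numbers, so a column was tied to a group but not to a replicate.

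Symbols, positions and transcripts came from RefSeq GRCm38.p6, transcript classes from GENCODE M21. Of 27179 identifiers, 1904 had no symbol. filterByExpr (minimum count 10, minimum total 15) kept 13129 genes with 99.9% of counts. TMM scaling assumes that most genes do not change. A model of 3 group means over 9 libraries (6 residual degrees of freedom) was tested with edgeR 4.0.16 (glmQLFTest, two-sided, R 4.3.3), with Benjamini-Hochberg adjustment over all 13129 genes and a prior count of 0.125. SE values were derived from the test statistic. Scripts were tested on simulated data. Alternatives used DESeq2 1.42.0, limma 3.58.1 and other scalings, filters and library sets. Near-identical copies were sought with blastn, and levels per kilobase used the union of exons. The chosen transcript was the RefSeq Select entry. For like patterns, genes of at least 10 CPM on average were ranked by Euclidean distance of log2 CPM from the input mean. All 9 members were named, and genes of the wider list only with a value. The members, gene lists, markers and tests were chosen with earlier results of these data known. Some items within these lists and rules are not reported here.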

Additional observations from a re-analysis of the deposited data

How the results depend on the processing

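Leaving aside the mitochondrial scaling, 22 alternatives were run for each member. Log2 fold changes of p-UPF1 over IgG kept direction and call for the 7 members called, with ranges of -3.03 to -2.82 for Magoh, -2.08 to -1.85 for Magohb, -2.10 to -1.89 for Rbm8a, -2.09 to -1.88 for Eif4a3, -1.41 to -1.19 for Sap18, 0.80 to 1.004 for Casc3 and 0.77 to 1.01 for Pym1. Rnps1 ranged from -0.22 to 0.01 and Acin1 from -0.09 to 0.11. Over input, Rnps1 lost its call with an IgG library as the TMM reference (-0.10) and without a low-count filter (-0.07).

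With equal mitochondrially encoded mRNA, log2 fold changes over IgG and over input became 2.77 and 2.94 for Eif4a3, 1.83 and 1.53 for Magoh, 2.78 and 2.82 for Magohb, 2.76 and 3.24 for Rbm8a, 4.64 and 4.83 for Rnps1, and 3.45 and 3.64 for Sap18. Those of IgG over input became 0.17 for Eif4a3, 0.041 for Magohb, 0.20 for Rnps1 and 0.33 for Pym1. By construction, the scale moved the median of all genes to 4.66 and 5.00. The number of members meeting both criteria became 8 (96.9% of all genes did), with 9 higher and 0 lower over IgG and over input (99.4% of genes higher in each), and 6 higher and 1 lower in IgG over input (46.6% and 8.33%). Other scalings moved the median over IgG to between -0.19 and -0.02.

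Calls of IgG over input were the least stable. The number lower was 1 with upper-quartile factors, library size alone, either other TMM reference, no low-count filter and a fit of the compared groups alone (17.3% to 28.1% of all genes), and 2 with DESeq2 (30.3%) and at an adjusted P under 0.01 (27.8%), where the number higher was 0 (13.8%). The number higher was 3, Casc3 included, with library size alone, either TMM reference and the fit of the compared groups. Leaving out single libraries gave 0 to 2 higher and 3 to 5 lower in IgG (14.3% to 19.1% and 29.9% to 36.3% of all genes), and 2 to 3 higher in p-UPF1 over IgG (38.6% to 40.6%). Rbm8a lost its call without Input replicate A (0.14), Input C (0.09), IgG A (0.10) or IgG C (0.11), Acin1 without Input A (0.13), B (0.12), C (0.12) or IgG C (0.11), Magohb without Input A (-0.26), and Rnps1 without Input B (-0.14) or IgG C (-0.13). Sap18 gained one without IgG A (-0.21), IgG C (-0.19) or p-UPF1 C (-0.16). The cause was not tested.

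A fit with the column letter as a replicate block, chosen after seeing the data, changed no call (Magoh -2.87 and Casc3 0.96 over IgG). Deviations from the group mean of libraries that share a letter correlated across genes by -0.0051 to 0.054, and those of different letters by -0.056 to 0.022. Every pair that shared letter A or B (0.032 to 0.054) lay above all pairs of different letters, and pairs of letter C did not. The main fit did not take letters as pairs, and whether they mark shared lysates was not tested. With 3 libraries a group, exact tests cannot go below 0.1, and Magohb in p-UPF1 rested on 72 to 80 reads per library.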
